A study of Mus musculus with 16 samples.

Results

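The early response of the newborn mouse lung to ozone was read from 8 of the 16 arrays of the series: 4 whole lungs taken 6 h after ozone against 4 taken 6 h after filtered air, chosen by their sample titles. All pups were BALB/c mice, an inbred laboratory strain, aged 3 days, and both groups spent 3 h in the exposure, the ozone group at 1000 ppb. Per the labels, the 6 h time point was run separately from the 24 h time point with its own air littermates, pups were fostered so that each stayed with a dam during exposure, and the lungs arrayed were a random choice among the exposed animals. The labels do not link pups to litters. Each array measured the RNA of 1 lung in 1 colour, after labelling from an oligo(dT) primer. Levels are log2 of the processed spot signal minus the 75th percentile of the same array, so that 0 is the brightness of that percentile and 1 unit is a doubling. A gene is said to have risen or fallen where limma gave an adjusted p under 0.05 (two-sided, Benjamini-Hochberg over all genes tested). The main fit took in all 16 arrays. Each SE and p-value of that fit therefore draws on the spread of the 24 h lungs too.

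Inhaled ozone reacts with the fluid and membranes that line the airways, and oxidised lipids formed there act on the epithelial cells below. Airway epithelium is known to answer with chemokines that draw neutrophils and with antioxidant genes under the transcription factor NRF2, which oxidants release from its inhibitor KEAP1. The lung of a newborn mouse is still forming alveoli, and many of its cells are dividing.

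Whole-lung identity was plain on all 8 arrays. Surfactant protein C (Sftpc), made by alveolar type II cells, had levels of 9.36 to 9.63, and the club cell product Scgb1a1 6.83 to 7.27. The alveolar type I marker Ager (4.04 to 4.42) and the endothelial cadherin Cdh5 (3.23 to 4.18) were also well above background in all 8 lungs.

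One array stood apart before any comparison. On ozone replicate 3, 83.9% of probes were well above background, against 65.0% to 72.4% on the other 7 arrays. Genes were split into 5 equal classes by mean signal. In the dimmest class its levels were 1.40 higher in the median than the mean of the other 3 ozone lungs, in the next class 0.44 higher, and in the brightest class 0.02 higher. Its correlation with the other ozone arrays over genes was 0.969 to 0.972, while other pairs of arrays of 1 group lay between 0.983 and 0.993. The main counts are therefore given with and without this lung. Replicates 1 and 2 shared a slide, as did replicates 3 and 4, and each slide held both groups. Ozone lungs always lay at positions 1 and 2 of a slide and air lungs at positions 3 and 4, so exposure and position cannot be told apart. The female-specific RNA Xist was high in 2 ozone lungs and 3 air lungs.

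**Figure D1:**
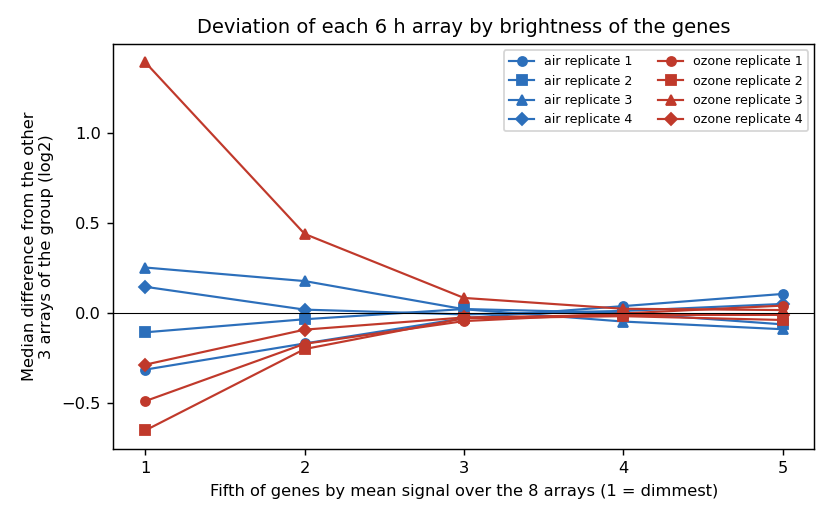
Median difference of each 6 h array from the mean of the other 3 arrays of its group (log2), for genes split into 5 equal classes by mean signal (1 is the dimmest). Ozone replicate 3 is 1.40 above its group in the dimmest class and 0.02 above it in the brightest.

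At 6 h after ozone 968 of 21629 genes had changed, which is 4.48% of genes tested. More genes had fallen than risen: 673 were lower (3.11%) and 295 higher (1.36%), and 615 of the lower genes lie outside the 3 proliferation lists described further on. Most shifts were small, with a median size of 0.43 on the log2 scale, and only 16 genes rose and 4 fell by 1 or more. With genes in 3 equal classes by signal, the brightest class held 463 lower and 132 higher genes and the dimmest 14 lower and 39 higher. The 4 ozone and 4 air values did not overlap for 801 of the 968, against 9.49% of all genes. Since whole lungs were measured, fewer cells of a type and less RNA per cell cannot be told apart.

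The number of calls moved with single lungs. Without ozone replicate 3, 433 genes were called (2% of those tested), 116 higher (0.536%) and 317 lower (1.47%), and 393 of these were among the 968. That keeps 36.61% of the higher and 42.35% of the lower genes, and all 968 kept their sign. Leaving out any other single lung gave between 196 calls (56 higher and 140 lower, without air replicate 4) and 1687 (411 and 1276, without air replicate 2), and 189 genes (51 higher, 138 lower) were called in every such fit. The all-gene median change was 0.07. Scaling the arrays by their medians moved it by -0.17 and left 37 higher and 872 lower genes, so that 4.07% of calls were higher in place of 30.48%. Within the slide of replicates 1 and 2 alone 53 genes were called and within that of replicates 3 and 4 765, and all 968 kept their sign in both. The calls were made on these same lungs, so kept signs here and without ozone replicate 3 are not an independent check. A fit on the 6 h arrays alone, with its smaller number of lungs, called 100 genes (0.462%), 19 higher (0.0878%) and 81 lower (0.374%), and 99 of them were among the 968.

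**Figure D2:**
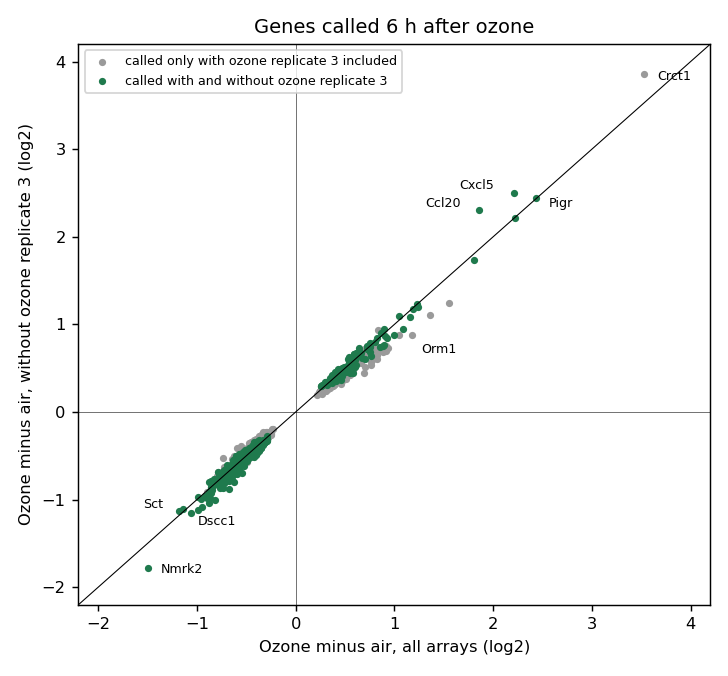
Change after ozone (ozone minus air, log2) of the 968 called genes with all arrays (x axis) and without ozone replicate 3 (y axis); green points were called in both fits and grey points only with all arrays, and the line marks equal values. All 968 points keep their sign, and 393 are green.

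The chemokines Cxcl5 and Ccl20 were among the largest rises. Cxcl5, a chemokine that draws neutrophils, stood at -2.19, -2.32, -3.80 and -3.37 in ozone replicates 1 to 4 and at -4.73, -5.31, -5.12 and -5.36 in air replicates 1 to 4. Every ozone lung lay above every air lung, and the 2 lungs on slide 1 were the higher ones. The rise was 2.21 ± 0.34 (SE, n = 4 per group), a 4.62-fold change, with an adjusted p of 0.0030 and 0.0011 without replicate 3. With normexp background correction (offset 50) and quantile normalization, called normexp hereafter, the rise was 0.81 (adjusted p = 0.026). Ccl20, which attracts dendritic cells and lymphocytes through its receptor Ccr6, was at -1.59, -1.33, -3.48 and -2.19 in ozone lungs and at -3.05, -4.54, -3.83 and -4.61 in air lungs. Here ozone replicate 3 lay below air replicate 1, so the groups overlapped. Ccl20 rose by 1.86 ± 0.41 (adjusted p = 0.020), and by 2.30 without replicate 3 (adjusted p = 0.0035). This call was lost when ozone replicate 1 or 2 or air replicate 4 was left out, with an adjusted p of at most 0.087. It was also lost with normexp (a rise of 0.75, adjusted p = 0.086), quantile normalization (0.10) and cyclic loess (0.075).

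Pigr, the epithelial receptor that carries IgA into the airway fluid, was well above background in 3 of 4 ozone lungs and in no air lung. Its levels of -4.13, -4.89, -4.76 and -5.06 after ozone and -7.15, -7.36, -6.79 and -7.26 after air did not overlap. Since the air levels are bounds, the main scaling put Pigr at least 2.18-fold higher after ozone. That fold sets the mean of all 4 ozone lungs against a mean over air lungs (adjusted p of the fit 0.0027). The latter is of the dimmest signal that still counted as above background. Over 17 alternatives the change of Pigr ran from 0.25 to 2.74, and 14 of them called it. Quantile normalization and normexp called no gene of the club cell list, which holds Pigr. Lrg1, a secreted glycoprotein of the acute phase response, was tighter, at -0.21, -0.64, -0.55 and -0.39 after ozone and between -1.30 and -1.15 after air. It rose by 0.76 ± 0.10 (adjusted p = 0.00080) and held its call in all 8 fits that left out 1 lung.

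The other chemokines of that list did not pass the test. Of the 8 neutrophil-attracting and epithelial chemokines measured, 2 rose and none fell, both with and without replicate 3, and the median change was 0.39. Cxcl1, another neutrophil attractant, changed by 0.48 ± 0.30 (adjusted p = 0.38), with air replicate 1 at -2.35 above all 4 ozone lungs and within-slide differences of opposite sign. Among CC chemokines the direction was mixed. Ccl11, which attracts eosinophils, was at -3.38, -3.36, -2.86 and -3.42 after ozone and at -2.45, -2.21, -1.75 and -2.66 after air. It fell by 0.99 ± 0.23 (adjusted p = 0.023), a call lost when ozone replicate 1 or 2 or air replicate 3 was left out (adjusted p at most 0.059). Ccl9, a macrophage chemokine, fell by 0.59 ± 0.16 (adjusted p = 0.049) and Cx3cl1, a membrane-bound chemokine, rose by 0.38 ± 0.09 (adjusted p = 0.029), and both were lost without ozone replicate 3 (0.13 and 0.084), and also when ozone replicate 1 or air replicate 3 or 4 was left out (at most 0.18).

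Promoters were searched for a motif of NF-kB, the factor through which cytokines and microbial products switch on many chemokine genes. A core of GGG, any 2 bases and TTTCC, searched on both strands in the 250 bases before each start in RefSeq promoters (GRCm38.p6), occur in 464 of 32851 promoters (1.412%). Ccl20 holds 1 match and Cxcl5 has no entry, while 2 of the 5 uncalled members with an entry also hold it. In the NF-kB signalling list, 3 of the 14 uncalled members with an entry hold it and the 1 riser with an entry does not. The window is shown because Ccl20 was among the largest rises; capitals mark the match, which reads as the reverse complement, 80 to 71 bases before the start (chr1:83116671-83116710, plus strand).
Ccl20: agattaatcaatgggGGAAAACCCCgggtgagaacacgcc

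Broader inflammatory genes moved little. Of 23 genes of NF-kB feedback and signalling 4 rose and none fell, with a median change of 0.18 against 0.07 for all genes. They were Cd14, the co-receptor for bacterial lipopolysaccharide (0.44 ± 0.09, adjusted p = 0.018), the lipopolysaccharide-binding protein Lbp (0.44 ± 0.11), the NF-kB subunit Relb (0.26 ± 0.07) and the adaptor Traf1 (0.34 ± 0.09). Cd14 alone was still called without ozone replicate 3 (adjusted p = 0.029), and its call was lost without air replicate 4 (0.077). None of the 23 was called without air replicate 4, and median scaling called none of these 4 genes. Of 32 acute phase and STAT3 genes 3 rose: Lrg1, the transport protein Orm1 and Stat3 itself, the transcription factor behind this response (0.36 ± 0.09, adjusted p = 0.033). Lrg1 alone was called without replicate 3. Orm1 was above background on 2 ozone arrays and 1 air array, so the size of its change is not settled, and its call was lost in 7 of the 8 fits without 1 lung (adjusted p at most 0.11). Saa3, an acute phase apolipoprotein, was at 0.13 in ozone replicate 1 and between -2.57 and -1.36 in the other ozone lungs, and it missed the test (adjusted p = 0.19).

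Neutrophil markers and interleukins stayed under the threshold at this time. None of 28 neutrophil markers passed (limma, 6 higher and 1 lower at an unadjusted p under 0.05), and neither did any of 21 interleukins and alarmins (2 higher and none lower unadjusted). The neutrophil calcium-binding protein S100a8 was at 3.65, 3.82, 3.78 and 4.28 after ozone and at 3.71, 3.59, 4.35 and 4.25 after air, an overlap with a difference of -0.09 ± 0.16. The neutrophil growth factor receptor Csf3r differed by 0.29 ± 0.14 (adjusted p = 0.26). Averaged over the 28 neutrophil markers, levels ran from -0.52 to -0.33 in ozone lungs and from -0.80 to -0.45 in air lungs.

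**Figure D3:**
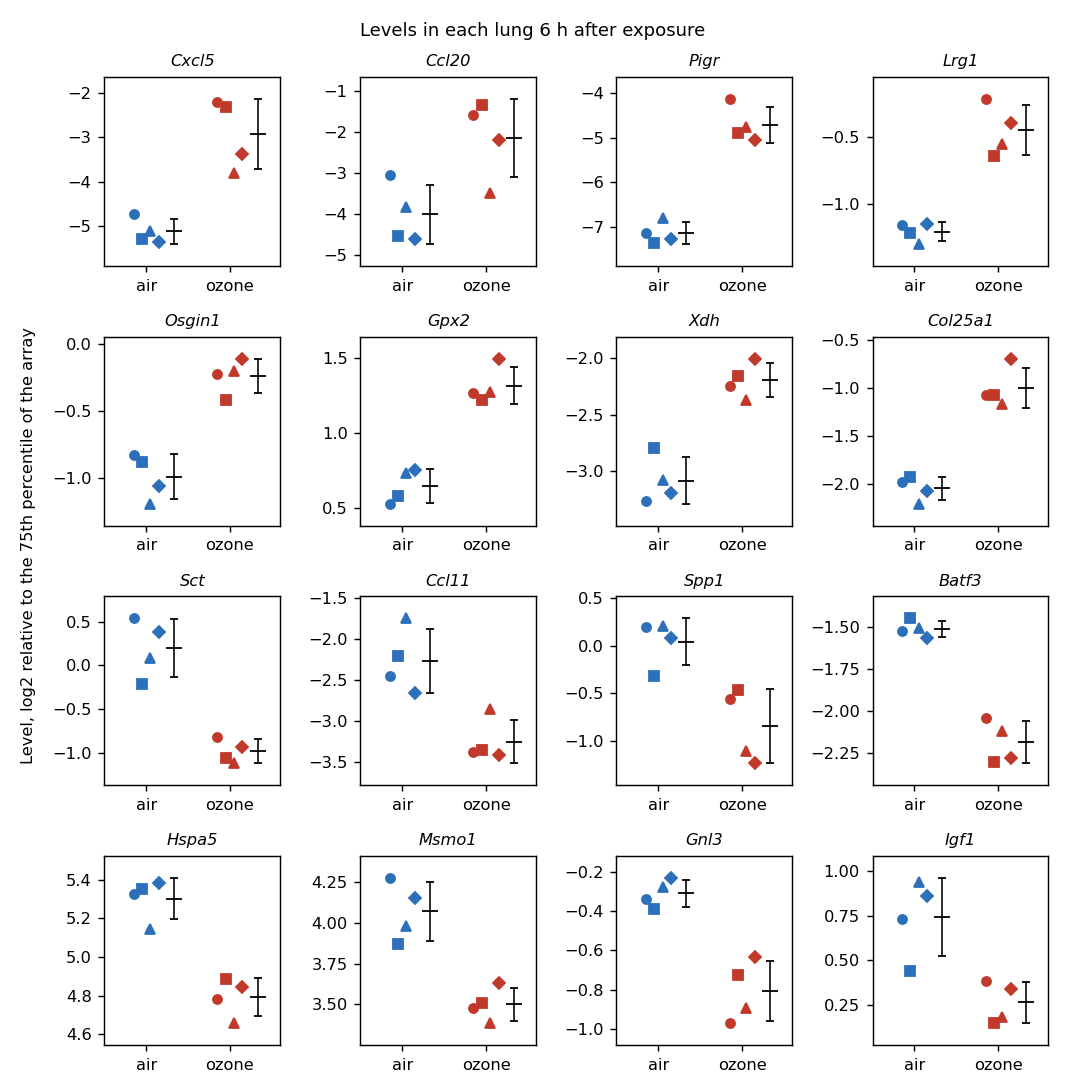
Levels of 16 genes (log2 relative to the 75th percentile of the array) in each lung 6 h after air (blue) or ozone (red); circle, square, triangle and diamond are replicates 1, 2, 3 and 4, and bars are the mean ± SD of 4 lungs. The groups overlap for Ccl20 and for none of the other 15 genes, and each panel has its own axis range.

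Outside these lists, the clearest rises were in genes of varied function. Col25a1, a membrane collagen best known from neurons, was at -1.06, -1.07, -1.17 and -0.69 after ozone and at -1.97, -1.92, -2.2 and -2.07 after air. The groups were far apart, and the rise of 1.04 ± 0.12 (adjusted p = 0.00044) was 1.1 without replicate 3. Xdh, xanthine oxidoreductase, which acts in purine breakdown and can release superoxide, was at -2.24, -2.16, -2.37 and -2.00 against -3.27, -2.80, -3.08 and -3.19, without overlap, as its choice required. It rose by 0.89 ± 0.14 (adjusted p = 0.0032). Gdpd2, a glycerophosphodiester phosphodiesterase, rose by 1.09 ± 0.18, more within slide 2 (1.59) than within slide 1 (0.59). Atp6v0a4, a subunit of the proton pump of acid-secreting cells, rose by 1.19 ± 0.23 (adjusted p = 0.011). With normexp the rises of Gdpd2 and Atp6v0a4 were 0.44 and 0.39, and Atp6v0a4 missed the threshold (adjusted p = 0.058). The membrane protein gene Lhfpl3 rose by 1.16 ± 0.23 and the phospholipase Pla1a by 0.90 ± 0.18.

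The endothelial receptor Gpr182 (0.90 ± 0.18), Cpne7 (0.88 ± 0.19), the mucin-type glycosyltransferase Galnt15 (0.85 ± 0.17), Spata48 (0.76 ± 0.15) and Xrra1 (1.00 ± 0.22) completed the 12 largest rises that also held without ozone replicate 3. Xrra1 was above background on 2 of 4 air arrays only, and its change was 0.09 with normexp and 0.51 with quantile normalization, both uncalled (adjusted p = 0.46 and 0.26). The calls of Cpne7, Galnt15 and Xrra1 were lost without air replicate 4, with adjusted p-values of 0.065, 0.064 and 0.074. Among the 12 largest rises, Cxcl5, Col25a1 and Xdh were also called on the 6 h arrays alone. The others had adjusted p-values of 0.055 to 0.13 in that fit.

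Outside the lists, 10 named genes rose in all 3 fits, that is with all arrays, without ozone replicate 3 and on the 6 h arrays alone; they were chosen after their values were seen. Besides Col25a1 and Xdh they were Acot1, an acyl-CoA thioesterase (0.57 ± 0.12), the glycine transporter Slc6a9 (0.53 ± 0.10), the glutamate receptor subunit Gria1 (0.54 ± 0.10), the asparaginase Aspg (0.58 ± 0.11), the tetraspanin Tspan33 (0.74 ± 0.16), the zinc finger gene Zc3h6 (0.54 ± 0.12), Cnppd1 (0.51 ± 0.08) and Mettl27 (0.58 ± 0.10). Their adjusted p-values lay between 0.0027 and 0.017, and Zc3h6 alone of these 8 lost its call in a fit without 1 lung (air replicate 4, 0.073). None of the 8 passed under median scaling, where their adjusted p-values were 0.063 to 0.14. A pair of ion transport genes of the alveolar and airway epithelium, also picked after their values were seen, rose as well. Scnn1a, the alpha subunit of the epithelial sodium channel, was at 3.89, 3.76, 3.98 and 4.32 against 3.62, 3.50, 3.12 and 3.45, and Atp1b1, a subunit of the sodium pump, was at 3.01, 2.61, 2.54 and 2.94 against 2.13, 2.43, 2.02 and 2.17. Neither pair of groups overlapped. Scnn1a rose by 0.57 ± 0.12 (adjusted p = 0.014) and Atp1b1 by 0.59 ± 0.11 (adjusted p = 0.0086), and the median-scaled values were 0.40 and 0.42 with adjusted p of 0.14 for both. Scnn1a differed by 0.27 within slide 1 (adjusted p = 0.48) and by 0.87 within slide 2 (adjusted p = 0.015).

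A few antioxidant genes rose and a few fell. Osgin1, an oxidant-induced growth inhibitor, was at -0.22, -0.42, -0.20 and -0.11 after ozone and at -0.83, -0.88, -1.19 and -1.06 after air, a rise of 0.75 ± 0.10 (adjusted p = 0.00080). Gpx2, the epithelial glutathione peroxidase, was at 1.26, 1.22, 1.28 and 1.5 against 0.53, 0.58, 0.73 and 0.75, a rise of 0.66 ± 0.12 (adjusted p = 0.0086). Both separated the groups in full and were called in all 8 fits without 1 lung. Under median scaling Gpx2 missed the threshold (adjusted p = 0.062).

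The rest of the NRF2 list did not follow. Of 35 NRF2 targets 2 rose and 2 fell, with a median of 0.07, as for all genes. The classical targets Nqo1, a quinone reductase (-0.13 ± 0.12), and Hmox1, heme oxygenase (0.10 ± 0.12), had overlapping groups and adjusted p-values of 0.55 and 0.66. The members that fell were Prdx1, a peroxiredoxin, and Txn1, thioredoxin. Prdx1 stood at 4.07, 4.38, 4.21 and 4.46 after ozone and at 4.70, 4.48, 5.11 and 4.76 after air, separate but close for ozone replicate 4 and air replicate 2. It fell by 0.48 ± 0.11 (adjusted p = 0.021). Txn1 fell by 0.32 ± 0.09 (adjusted p = 0.048). Of 28 peroxidases, peroxiredoxins and dismutases 4 fell: these 2 genes, Prdx4 (0.45 ± 0.10), the peroxiredoxin of the endoplasmic reticulum, and Gpx7 (0.32 ± 0.09), which works in the same compartment. None of the 4 was called when ozone replicate 1 or 3 or air replicate 4 was left out (adjusted p at most 0.17), while 8 of the 28 fell without air replicate 2. None of the 13 metallothioneins and zinc transporters passed, and none had an unadjusted p under 0.05 (limma).

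Several chaperones of the endoplasmic reticulum fell, while the inducible cytosolic Hsp70 genes rose under the main scaling. Of 32 measured chaperone and unfolded protein response genes 7 fell and 1 rose, with a median change of -0.14, or -0.21 relative to all genes. Hspa5, the main Hsp70 chaperone of this compartment (BiP), was at 4.79, 4.89, 4.66 and 4.84 after ozone and at 5.33, 5.35, 5.14 and 5.38 after air. The groups did not overlap, and the fall was 0.51 ± 0.09 on the log2 scale (adjusted p = 0.0060, and 0.022 without replicate 3). Pdia6, a disulfide isomerase, fell by 0.48 ± 0.09 (adjusted p = 0.0072) and the chaperone partner Sdf2l1 by 0.44 ± 0.08 (adjusted p = 0.0079). The lectin chaperones Canx (0.35 ± 0.08) and Calr (0.34 ± 0.08), the Hsp90 form Hsp90b1 (0.37 ± 0.09) and the secreted stress factor Manf (0.47 ± 0.12) also fell. The 1 that rose was Sesn2, a stress-induced regulator of nutrient signalling (0.37 ± 0.10, adjusted p = 0.038). The mediators Ddit3 (0.09, adjusted p = 0.61) and Xbp1 (-0.14, adjusted p = 0.36) were not called.

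Hspa5, Pdia6 and Sdf2l1 kept their calls in all 8 fits without 1 lung. The list had 4 genes that fell and none that rose without ozone replicate 3, and 3 and none without air replicate 4. Leaving out ozone replicate 2 or 3 or air replicate 4 cost the calls of Hsp90b1, Calr and Manf (adjusted p at most 0.14), and Canx was lost only without air replicate 4 (0.085). Sesn2 was lost without ozone replicate 1 or 3 or air replicate 3 or 4 (adjusted p at most 0.14).

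Most of the chaperone genes that fell share a promoter element. The ER stress response element, CCAAT, any 9 bases and CCACG, which ATF6 and XBP1 with NF-Y are known to bind, was searched on both strands in the 250 bases before the start. It occurs in 37 of 32851 RefSeq promoters (0.113%), in 9 of the 30 list members with an entry, in 5 of the 6 members that fell with an entry, and in 4 of the 23 uncalled members with an entry. Sdf2l1 has no match in this window. The windows shown are those of the members that fell and hold a match; capitals mark the match, and each runs 5′ to 3′ along the gene (GRCm38.p6).
Hspa5: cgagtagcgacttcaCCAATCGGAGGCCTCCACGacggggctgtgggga
Pdia6: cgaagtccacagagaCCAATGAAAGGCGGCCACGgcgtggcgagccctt
Hsp90b1, first match: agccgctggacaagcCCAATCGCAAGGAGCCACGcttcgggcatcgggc
Hsp90b1, second match: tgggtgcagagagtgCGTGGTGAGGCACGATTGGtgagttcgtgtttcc
Canx: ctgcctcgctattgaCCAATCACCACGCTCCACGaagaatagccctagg
Calr: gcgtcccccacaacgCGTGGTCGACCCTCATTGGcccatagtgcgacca
The second match of Hsp90b1 and the match of Calr read as the reverse complement. The matches begin 65 bases before the start in Hspa5 (window chr2:34772010-34772058, plus strand), 98 in Pdia6 (chr12:17266476-17266524, plus), 212 for the first match in Hsp90b1 (chr10:86705623-86705671, minus; its second match lies in chr10:86705518-86705566), 145 in Canx (chr11:50325785-50325833, minus) and 162 in Calr (chr8:84847060-84847108, minus).

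Among chaperones of the cytosol, the stress-inducible Hspa1a was at -0.35, 0.05, 0.09 and -0.12 after ozone and at -0.42, -0.62, -1.08 and -0.88 after air. It rose by 0.67 ± 0.12 (adjusted p = 0.0071), by 0.37 within slide 1 and 0.97 within slide 2. Its near copy Hspa1b rose by 0.56 ± 0.14 (adjusted p = 0.036), and a probe for one can bind the other. Under median scaling neither Hspa1a (adjusted p = 0.0504) nor Hspa1b (0.15) passed. The mitochondrial chaperonin pair Hspd1 (0.33 ± 0.08) and Hspe1 (0.48 ± 0.12) fell. Together 2 of 25 heat shock chaperones rose and 2 fell. Only Hspa1a was called without ozone replicate 3, and the calls of Hspa1b, Hspd1 and Hspe1 were also lost without air replicate 4 (adjusted p at most 0.14).

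Some genes for building ribosomes fell. Of 30 ribosome biogenesis genes 10 fell and none rose, with a median of -0.18, or -0.25 relative to all genes. Gnl3, the nucleolar GTPase nucleostemin, was at -0.97, -0.73, -0.89 and -0.63 after ozone and at -0.34, -0.39, -0.28 and -0.23 after air, a fall of 0.50 ± 0.08 with no overlap (adjusted p = 0.0037). Nop58 (0.60 ± 0.11), Nop56 (0.46 ± 0.12) and Fbl (0.34 ± 0.09), core proteins of the particles that methylate ribosomal RNA, fell, as did Dkc1 (0.48 ± 0.12), Nhp2 (0.52 ± 0.11) and Nop10 (0.43 ± 0.12), of the particles that form pseudouridine. The others were Wdr12 (0.42 ± 0.12), Wdr43 (0.39 ± 0.10) and Nip7 (0.42 ± 0.10), factors of subunit assembly. Of the 30, 3 fell without ozone replicate 3 and 2 without air replicate 4, and 5 when ozone replicate 1, ozone replicate 2 or air replicate 1 was left out. None was called on the 6 h arrays alone or within slide 1, while 5 fell within slide 2. Gnl3 and Nop58 held in all 8 fits without 1 lung, Nhp2 was lost only without air replicate 4 (0.066), and the others had adjusted p-values of at most 0.18.

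Named genes that fell in all 3 fits and belong to no list, 42 in number, held splicing and nucleotide genes, singled out here after their values were seen. Pno1, an assembly factor of the small ribosomal subunit, fell by 0.54 ± 0.09. The splicing proteins Srsf3 (0.69 ± 0.11), Snrpd1 (0.69 ± 0.11) and Hnrnpdl (0.46 ± 0.07) fell too. Enzymes that make or clean nucleotide pools were Dtymk, thymidylate kinase (0.78 ± 0.12), the nucleoside diphosphate kinases Nme1 (0.72 ± 0.10) and Nme4 (0.53 ± 0.09), Dut, which removes dUTP (0.48 ± 0.10), Dctpp1 (0.61 ± 0.13) and Nudt5 (0.56 ± 0.11). The pyrophosphatase Ppa1 fell by 0.72 ± 0.10. Nme1 shows the separation, at 1.75, 1.71, 1.51 and 1.79 after ozone and at 2.41, 2.20, 2.49 and 2.54 after air (adjusted p = 0.0012). Of these 11 genes only Dut and Dctpp1 lost a call in a fit without 1 lung, both without air replicate 4 (adjusted p = 0.058 and 0.067).

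Further genes of that group act at the cell surface or in lung patterning. The phosphate transporter Slc20a1 was at 1.51, 1.63, 1.43 and 1.67 after ozone and at 2.09, 2.19, 2.12 and 2.19 after air. It fell by 0.59 ± 0.07 (adjusted p = 0.00079), the groups being far apart, although the 1 other probe of this gene had the opposite sign. The membrane peptidases Phex, a regulator of phosphate balance (0.76 ± 0.13), and Enpep, which cleaves angiotensin (0.62 ± 0.10), fell, and so did Irx2, a homeobox gene of the developing lung (0.55 ± 0.08). All 4 kept their calls in the 8 fits without 1 lung.

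Some cholesterol synthesis genes were lower. Of 27 genes of synthesis and uptake 4 fell and none rose, with a median of -0.19, or -0.26 relative to all genes, and 23 of the 27 had values below 0. Msmo1, a sterol oxidase of the pathway, was at 3.48, 3.51, 3.39 and 3.63 after ozone and at 4.27, 3.87, 3.98 and 4.15 after air, a fall of 0.57 ± 0.10 without overlap (adjusted p = 0.0063). Idi1, which makes dimethylallyl diphosphate (0.54 ± 0.11), the demethylase Cyp51 (0.47 ± 0.11) and the desaturase Sc5d (0.56 ± 0.14) fell as well. The list median was -0.39 within slide 1 and 0.02 within slide 2. Only 1 of the 27 fell without ozone replicate 3 or without air replicate 4. Leaving out air replicate 1 gave 2 and leaving out air replicate 3 gave 7. Msmo1 held in every fit without 1 lung, and the adjusted p-values of the other 3 were at most 0.11. None of 25 fatty acid genes passed (limma, 3 higher and 1 lower unadjusted).

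**Figure D4:**
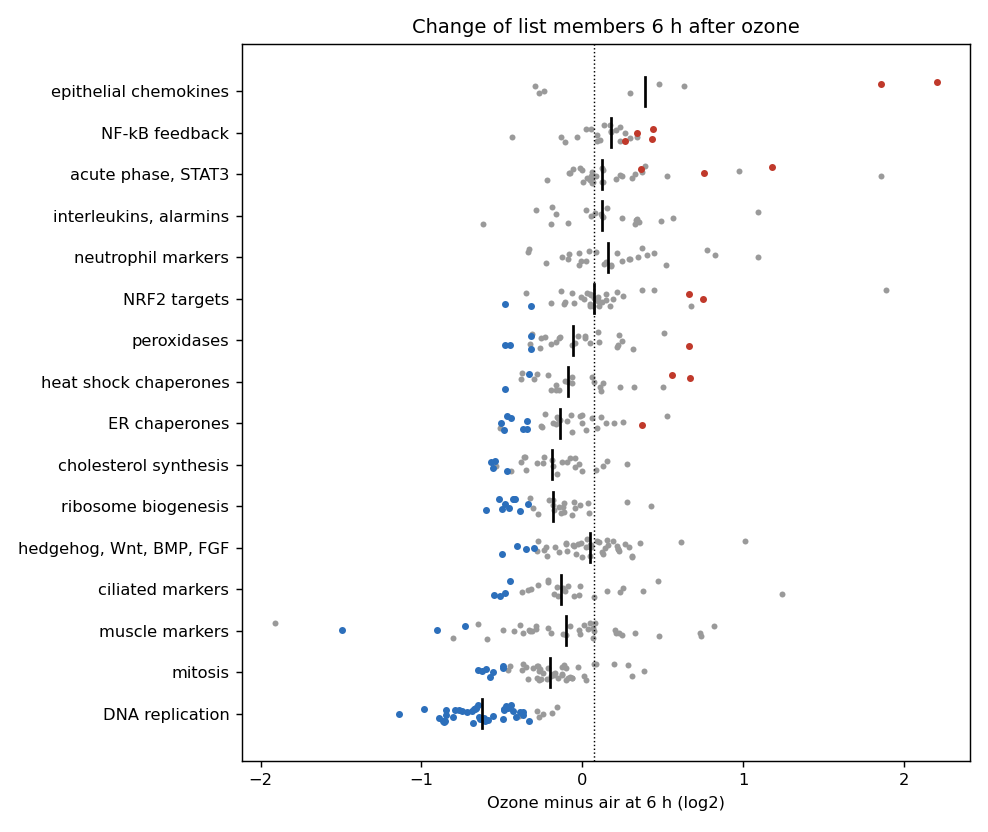
Change 6 h after ozone (ozone minus air, log2) of every measured gene of 16 lists; red points rose, blue points fell, grey points did not pass the test, black bars are list medians and the dotted line is the median of all genes (0.07). DNA replication has 38 blue points of 44, ribosome biogenesis 10 of 30 and the ER chaperones 7 of 32.

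DNA replication genes gave the most uniform fall: 38 of 44 were lower, 36 without ozone replicate 3 and 21 without air replicate 4, and all 44 values were below 0. The median was -0.62. Its largest members were Dscc1, which helps load the sliding clamp (1.14 ± 0.11), and the helicase subunit Gins1 (0.98 ± 0.12). Pcna, the clamp itself, was at 4.09, 3.98, 3.93 and 4.05 after ozone against 4.78, 4.66, 4.80 and 5.02 after air and fell by 0.80 ± 0.09 (adjusted p = 0.00044). Of 34 genes of the G1 to S switch 13 fell, among them the cyclin Ccne2 (1.06 ± 0.21) and the checkpoint kinase Chek1 (0.96 ± 0.15), and 13 without replicate 3. Without air replicate 4, 8 fell, and Ccne2 was lost (0.065). Of 48 mitosis genes 7 fell, 6 without replicate 3 and 2 without air replicate 4. The same list had 45 that fell at 24 h, with a median of -0.91 there and -0.20 at 6 h. The difference between the 2 times was called for 1 of the 48. Outside these lists the CRL2 ubiquitin ligase receptor Lrr1 fell by 0.92 ± 0.15.

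Few growth and patterning genes were called. Of 46 hedgehog, Wnt, BMP and FGF genes 4 fell and none rose: the hedgehog inhibitor Hhip (0.50 ± 0.11), the hedgehog effector Gli3 (0.30 ± 0.07), the ligand Bmp5 (0.41 ± 0.09) and the BMP target Id1 (0.35 ± 0.07). The list had 3 calls without ozone replicate 3, where Hhip had an adjusted p of 0.0503, 2 without ozone replicate 1, 1 without ozone replicate 2, and none without air replicate 4 (adjusted p 0.060 to 0.12). In the IGF axis, which drives growth after birth, 1 of 21 fell and 1 rose. Igf1 was at 0.38, 0.15, 0.18 and 0.34 after ozone and at 0.73, 0.44, 0.94 and 0.86 after air, a fall of 0.48 ± 0.11 (adjusted p = 0.020), while its binding protein Igfbp6 rose by 0.43 ± 0.11 (adjusted p = 0.033). Neither passed without ozone replicate 3 (0.056 and 0.071), and both were also lost when ozone replicate 2 or air replicate 4 was left out (at most 0.0996).

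Clock, hormone and matrix genes gave single calls. The clock repressor Nr1d2 was lower in every ozone lung (-0.82, -0.69, -0.58 and -0.31) than in every air lung (0.18, -0.10, 0.25 and -0.15), a fall of 0.64 ± 0.12 (adjusted p = 0.0097). It held in all 8 fits without 1 lung and was the only 1 of 20 clock genes to fall. Without ozone replicate 3 the glucocorticoid list of 27 genes kept its 2 rises and lost its 1 fall, and the matrix list of 48 had 1 rise and 2 falls as before. In the first, Gadd45b, a stress-induced growth arrest gene (0.56 ± 0.12), and the sulfotransferase Sult1a1 (0.40 ± 0.10) rose, and the MAP kinase phosphatase Dusp1 fell (0.80 ± 0.20). Dusp1 was also the only 1 of 28 immediate early genes called. It was lost without ozone replicate 3 (0.087), and all 3 were lost without air replicate 4 (adjusted p at most 0.11). In the matrix list of 48 genes, Eln, the elastin gene, rose by 0.63 ± 0.15, more within slide 2 (0.93) than slide 1 (0.33), and was lost without air replicate 4 (0.077). Vcan, the proteoglycan versican, fell by 0.68 ± 0.10 (adjusted p = 0.0023), though 1 of its 3 other probes had the opposite sign. Spp1, osteopontin, was at -0.56, -0.46, -1.1 and -1.23 after ozone and at 0.20, -0.31, 0.21 and 0.08 after air and fell by 0.88 ± 0.18, by 0.45 within slide 1 and 1.31 within slide 2. Vcan and Spp1 held in all 8 fits without 1 lung.

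Smaller lists held few calls. The protease inhibitor Timp4 was the only 1 of 30 protease genes to rise (0.58 ± 0.13), and it was lost without air replicate 4 (0.074). Erbb3, a partner receptor of the EGF receptor family, was the only 1 of 24 in its list (0.30 ± 0.07), and Sesn2 the only 1 of 26 p53 targets, both lost without ozone replicate 3 (0.071 and 0.12). The glycolytic Pgk1 (0.33 ± 0.08) and the hypoxia-induced Higd1a (0.53 ± 0.12) fell among 27 hypoxia genes, and neither passed without ozone replicate 3 (0.11 and 0.081). None of 23 prostanoid and leukotriene genes passed (limma, none higher and 3 lower unadjusted).

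Among markers of pulmonary neuroendocrine cells, the sensory secretory cells of the airway, the hormone gene Sct (secretin) was 1 of the 12 largest falls. It was at -0.82, -1.06, -1.12 and -0.94 after ozone and at 0.54, -0.22, 0.08 and 0.38 after air. The groups did not overlap, as the choice of these 12 required. The fall was 1.18 ± 0.19 (adjusted p = 0.0035, and 0.014 without replicate 3), by 1.1 within slide 1 and 1.26 within slide 2. The neuropeptide genes Grp (0.39 ± 0.08, adjusted p = 0.012) and Calca (0.69 ± 0.17, adjusted p = 0.027) of the same cells rose, and Calca was lost without ozone replicate 1, 2 or 3 or air replicate 1 or 4 (at most 0.11). Under median scaling neither Grp (adjusted p = 0.31) nor Calca (0.067) passed. Of the 20 markers, 2 rose and 1 fell, and 1 and 1 without replicate 3. Values were above 0 for 16 of the 20.

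Of 26 ciliated cell genes 4 fell: Mlf1 (0.55 ± 0.13), Ccdc153 (0.51 ± 0.12), Sntn, of the ciliary tip (0.48 ± 0.13), and Pifo, of cilium disassembly (0.45 ± 0.11). None of the 4 passed without ozone replicate 3 (0.059 to 0.098) or without air replicate 4 (at most 0.15). Their master factor Foxj1 differed by 0.38 ± 0.12 in the other direction (adjusted p = 0.073). Among dendritic cell markers the transcription factor Batf3, needed for the cross-presenting type, was at -2.04, -2.31, -2.12 and -2.28 after ozone and at -1.52, -1.45, -1.51 and -1.57 after air. It fell by 0.67 ± 0.09 (adjusted p = 0.0015), held in all 8 fits without 1 lung, and was the only call among 21 MHC class II and dendritic cell genes. Of 44 interferon-stimulated genes 2 fell, Ifi27 (0.63 ± 0.10, adjusted p = 0.0035) and the RNA sensor Oas1a (0.74 ± 0.20, adjusted p = 0.048), with 32 values below 0. Ifi27 held in all 8 fits, and Oas1a was lost in 7 of them (at most 0.13), so that 1 of the 44 fell without replicate 3. The list median was -0.19, and -0.12 without replicate 3.

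Markers of tissue that can be caught in a lung dissection were read beside these results. Of 39 cardiac and skeletal muscle genes 3 fell: Nmrk2, an NAD-forming kinase of muscle (1.49 ± 0.39), the stress protein Ankrd1 (0.91 ± 0.22) and Smpx (0.73 ± 0.16). Without replicate 3, 2 of the 39 fell. The mean level over the list ran from -0.20 to 0.22 in ozone lungs and from -0.38 to 0.58 in air lungs. The cardiac myosins Myh6 (0.21, adjusted p = 0.55) and Myh7 (0.33, adjusted p = 0.18) were not called, and the part of muscle in these falls was not tested. Nmrk2 overlapped between groups and was called in 2 of the 8 fits without 1 lung, Ankrd1 also in 2, and Smpx in all. Crct1, of the cornified envelope, was at -2.50, -0.73, -2.68 and -0.94 after ozone, at -1.22 in air replicate 1 and between -7.62 and -6.01 in the other air lungs. It was well above background on all ozone arrays and 1 air array, so the size of its change is not settled (adjusted p = 0.040). The adjusted p was 0.064 without ozone replicate 3, and 7 of the 8 fits without 1 lung lost the call. The mean level over 21 basal and squamous epithelial markers was -1.82 to -1.36 after ozone and -2.56 to -1.37 after air. Of these 21 only Dmkn was called, lower by 0.43 ± 0.12 and lost without replicate 3 (0.12), and their part in the Crct1 value was not tested. The mean level over 14 brown and white fat markers was 0.61 in air replicate 1 and between -1.76 and -0.77 in the other lungs. Air replicate 1 also had the highest mean of the muscle list (0.58) and of the cholesterol list (1.38). The part of such tissue in the changes of other genes was not tested.

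The remaining cell types gave at most 1 call each. Pigr was the only 1 of 26 club cell genes called and Gpr182 the only 1 of 30 endothelial genes. The pericyte receptor Notch3 rose (0.47 ± 0.11) among 27 mesenchymal genes, Gata2 (0.35 ± 0.09) among 18 of mast cells and basophils, and Mslnl (0.94 ± 0.26) among 13 mesothelial genes. The mannose receptor Mrc1 fell (0.39 ± 0.11) among 32 macrophage genes and the membrane skeleton gene Add2 (0.54 ± 0.15) among 32 erythroid genes, where 2 of its 3 other probes had the opposite sign. All 5 lost their call without air replicate 4 (at most 0.17), and all but Add2 without ozone replicate 3 (at most 0.13). No gene was called among markers of alveolar type I (21), alveolar type II (22), mucous (18), B (23), T and NK (33), platelet (17) and fat cells (14). In limma at an unadjusted p under 0.05, alveolar type II markers had 6 higher and 4 lower and type I markers 3 and 1. Mucous cells had none and 1, B cells 1 and none, T and NK cells 2 and none, platelets 1 and none, and fat 1 and none.

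The 12 largest falls also held Dtl, a ubiquitin ligase receptor that acts in S phase (0.88 ± 0.14), the replication helicase factor Cdc45 (0.86 ± 0.12) and the calcium channel Ryr3 (0.86 ± 0.13), for which 3 of 4 other probes had the opposite sign. For Thsd7b, above background in every air lung and in no ozone lung, the level was at least 1.48-fold lower after ozone. Its 2 other probes pointed the other way, and the mean of its probes changed by 0.15 in place of -0.95. This call was lost in 5 of the 8 fits without 1 lung (adjusted p at most 0.083).

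At 24 h after ozone, in lungs with their own air controls, 435 genes were called (2.01%), 149 higher (0.689%) and 286 lower (1.32%), and 116 genes were called at both times with the same sign, 25 higher and 91 lower. These are 11.98% of the 6 h calls and 26.67% of the 24 h calls, and 730 of the 968 early genes had the same sign at 24 h. One gene, Lrmda, of melanosome maturation, was called at both times with opposite signs. The difference between the 2 ozone effects was called for 14 genes (0.0647%; limma, 2704 at an unadjusted p under 0.05), 4 of them higher at 6 h (0.0185%) and 10 lower (0.0462%).

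Of these 14, 9 were also called at 6 h. Gdpd2 rose by 1.09 at 6 h and stood at -0.63 ± 0.18 at 24 h, a difference of 1.72 ± 0.25 (adjusted p = 0.024). For Col25a1 the 24 h value was -0.19 ± 0.12 and the difference 1.23 ± 0.17 (adjusted p = 0.022). Lrg1 was at -0.03 ± 0.10 by 24 h, a difference of 0.79 ± 0.13 (adjusted p = 0.038). Batf3 went the other way, with 0.19 at 24 h and a difference of -0.87 ± 0.13 (adjusted p = 0.027). Pifo (-0.87 ± 0.15), Mdh1b, a malate dehydrogenase relative (-0.86 ± 0.15), Ddc, the decarboxylase that forms dopamine and serotonin (-0.85 ± 0.14), Lrmda (-0.81 ± 0.13) and Nme9, a thioredoxin-domain kinase relative (-0.69 ± 0.12), were lower at 6 h and above 0 at 24 h. For Ddc the 1 other probe had the opposite sign. Over the alternatives the 6 h change of Ddc, -0.59, ran from -0.76 to -0.16. The other 5 of the 14 were Ccnf, Ms4a7, Ociad2, Prnd and Vpreb3, none of them called at 6 h. Leaving out 1 lung gave a count of 5 (ozone replicate 3), 6 (ozone replicate 2), 7 (air replicate 3), 0 (air replicate 4) or 263 (air replicate 2). For Cxcl5 (1.08 at 24 h) and Ccl20 (0.38 at 24 h) the difference was not called.

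**Figure D5:**
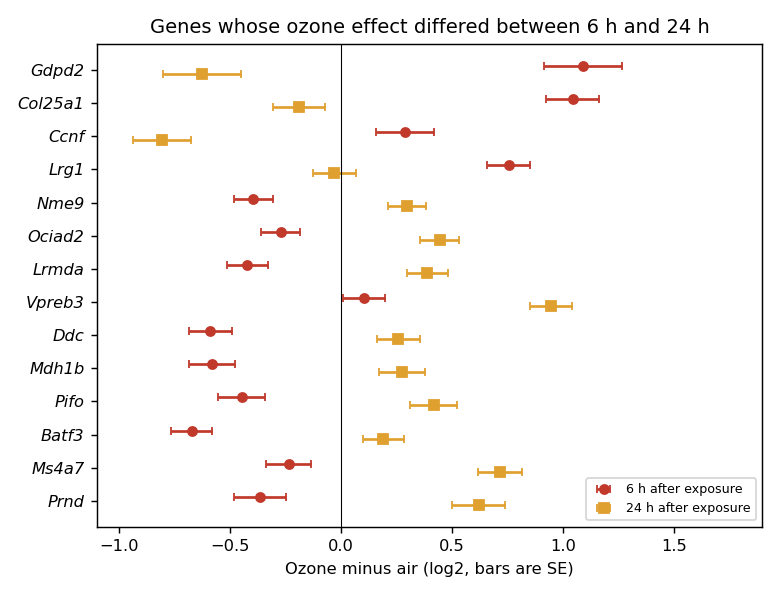
Change after ozone (ozone minus air, log2) at 6 h (red circles) and 24 h (yellow squares) for the 14 genes whose effect differed between the times; bars are SE. Gdpd2, Col25a1, Lrg1 and Ccnf lie higher at 6 h and the other 10 genes lower.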

How the data were processed

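Per the file headers, Feature Extraction 10.7.1.1 produced the 1-colour spot intensity, linear and background-subtracted but not scaled across arrays. Other columns that the authors deposited flag spots well above background, saturated (none) or uneven. A log2 table that the authors deposited has 1 distribution within each time point. No source used here states its background treatment, and it served only as an alternative.

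Spots of a probe were averaged (41174 probes), and log2 signal minus the array's 75th percentile was used. The probes kept (32340) were above background on at least 4 of 16 arrays, with 157 uneven probes left out, and a gene with several probes (7335 genes) took its brightest. Limma 3.58.1 in R 4.3.3 (lmFit, eBayes with trend) fitted 1 mean per group over all 16 arrays. The number of arrays limits the precision (median SE 0.13).

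Genes named are, per direction, the 12 largest called changes that do not overlap, are above background in the higher group and are also called without ozone replicate 3 (predicted names passed over), members of the 48 gene lists (28 pathway, 20 cell type), the 5 per direction whose effect differed most from 24 h, and the 5 that moved most without that lung. Others are said to be chosen after their values were seen. The comparison, genes and lists were chosen with earlier results of these data known. Some genes of the lists are not reported here. The fits were tested on simulated data. Alternatives were other scalings, background corrections, filters, probe rules, arrays in the fit, blocks, array weights and Xist as a covariate, and the cyclic loess fit without ozone replicate 3 was added after seeing the data. Promoters are RefSeq entries matched by symbol.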

Additional observations from a re-analysis of the deposited data

Results flagged for a closer look

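In 16 of 380 groups of 4 values, 1 lung lay far from the other 3 by Dixon's criterion, and chance alone flags about 1 group in 20. Ozone replicate 3 was high for Spata48 (-2.59, others -3.10 to -3.03), Ccl11 (-2.86, others -3.42 to -3.36), Gins2 (0.30, others 0.00 to 0.01) and Timp4 (-1.48, others -2.05 to -1.98). Ozone replicate 2 was low for E2f1 (-2.61, others -2.42 to -2.39). Air replicate 3 was high for Cd14 (0.21, others -0.04 to -0.01) and Saa3 (-1.71, others -2.52 to -2.46), and low for Cdc6 (-2.41, others -1.59 to -1.49), Fen1 (-0.14, others 0.32 to 0.34) and Tk1 (1.06, others 1.65 to 1.67). Air replicate 2 was low for Txn1 (5.05, others 5.28 to 5.33), Phex (0.94, others 1.34 to 1.41), Nme4 (0.68, others 0.99 to 1.05), Dtymk (3.68, others 4.2 to 4.28) and Srsf3 (0.59, others 1.06 to 1.11). Air replicate 1 was high for Pold1 (2.09, others 1.94 to 1.95).

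Ozone effects differed between 6 h and 24 h by limma's test of the difference for Gdpd2 (1.72), Col25a1 (1.23), Lrg1 (0.79), Batf3 (-0.87), Pifo (-0.87), Mdh1b (-0.86), Ddc (-0.85) and Lrmda (-0.81), with adjusted p-values between 0.022 and 0.038.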

How the results depend on the processing

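The number of called genes (968, 295 higher and 673 lower) depended on the fit, while the called genes named kept their sign in all alternatives run except Thsd7b (0.15) and Ryr3 (0.0311) with the mean of a gene's probes. Cyclic loess gave 460 higher and median scaling 37 higher. The authors' table on the 6 h arrays gave 110 (30 and 80), 6 h arrays only 100 (19 and 81), the same without ozone replicate 3 26 (7 and 19), the slide of replicates 1 and 2 53 (12 and 41), array weights 1818 (523 and 1295) and Xist as a covariate 558 (149 and 409). Without ozone replicate 3, quantile normalization gave 509 (170 and 339) and cyclic loess 551 (193 and 358). Fits without 1 lung gave 196 to 1687 calls, 56 to 411 higher and 140 to 1276 lower. Same-numbered deviations correlated at 0.05, 0.14, 0.11 and 0.14. Those of different number ran from -0.17 to 0.15, the highest being ozone replicate 2 with air replicate 1. Values this small cannot decide whether replicate numbers pair the lungs, and the main fit did not pair them. With the replicate block 247 genes were called (74 and 173). The difference from 24 h (14 genes) gave 37 with quantile normalization, 6 with the slide as a block, 441 with array weights, 1 with the replicate block and 0 to 263 without 1 lung. Of 185 called genes followed one by one, normexp with quantile normalization made 24 changes over 1.5 times smaller and lost 24 calls. Median scaling made 14 smaller and 4 larger and lost 36. The slide of replicates 1 and 2 made 23 smaller and 2 larger and lost 157. The 6 h arrays alone lost 120 of the 185 calls, and 166 when ozone replicate 3 was also left out. Uncalled genes changed sign: Cxcl1 (-0.15), Nqo1 (0.0209), Hmox1 (-0.16) and S100a8 (0.0877) within the slide of replicates 1 and 2, Hmox1 also with median scaling (-0.0686) and array weights (-0.0436), and S100a8 with quantile normalization less ozone replicate 3 (0.0337). Over fits without 1 lung Hmox1 ran from -0.0447 to 0.1653 and S100a8 from -0.2235 to 0.0337. The cause was not tested. Signal over background limits genes such as Pigr and Thsd7b to bounds.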
